A study of Mus musculus with 4 samples.

Results

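The genes described here are 35 enzymes of energy metabolism, chosen by name with earlier results of these data known. They cover glycolysis, the lactate dehydrogenases, pyruvate entry into mitochondria, the tricarboxylic acid (TCA) cycle, the malate-aspartate shuttle and the pentose phosphate pathway. They were measured in Beta-TC-6 cells, a mouse pancreatic beta cell line, on Affymetrix Mouse Gene 2.1 ST arrays with 1 array per sample. In 2 samples the cells were transfected with a mixture of RNA duplexes against NF45 (siNF45), and in 2 with a negative control siRNA (siNTC); all were grown in medium with high glucose and received the same lipid transfection reagent. NF45, encoded by Ilf2, is part of a protein complex that binds double-stranded RNA, and the comparison asked which transcripts differ when it is depleted. Nothing in the labels tells if replicate samples were transfected independently. All p-values therefore rest on the variation among 4 samples, some or all of which could be technical.

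Of the 35 genes, 30 had a probe set annotated to that gene alone, 34 probe sets in all. Aldoa and Tkt had only probe sets shared with another gene, and Gpi1, Eno1 and G6pdx were not analysed here. A probe set entered the comparison when its mean over the 4 arrays reached 1.65, the median of all probe sets on the log2 scale, and the brightest probe set stood for its gene. This kept 28 of the 30 among 11742 tested genes. Hk2 and Ldha lay below the limit.

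Glycolysis splits glucose into pyruvate in the cytosol. Hexokinase and phosphofructokinase spend ATP in its upper steps, and phosphoglycerate kinase and pyruvate kinase return it in the lower ones. Pyruvate then enters mitochondria, where pyruvate dehydrogenase turns it into the acetyl-CoA that the TCA cycle oxidises. In beta cells this chain couples blood glucose to insulin release. Mature beta cells send nearly all pyruvate to mitochondria and keep lactate dehydrogenase A and low-Km hexokinases low, relying on glucokinase and on the malate-aspartate and glycerol phosphate shuttles to carry reducing equivalents. The pentose phosphate pathway branches off glucose 6-phosphate and supplies NADPH and ribose.

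The tested glycolytic enzyme genes had lower means in siNF45 cells. The other members had a median close to that of all genes, with 4 of 17, Dlat, Cs, Ldhb and Pgd, in the lowest 25% of differences. The 11 tested glycolytic genes were all below 0, with a median difference (siNF45 minus siNTC) of -0.70 on the log2 scale, against -0.07 over all tested genes, of which 61.3% were below 0. On 10 of the 11, both siNF45 arrays lay below both siNTC arrays, a pattern shown by 32.6% of all tested genes. No member passed the limma adjusted threshold of 0.05, which 0.0852% of tested genes passed. Tpi1, Hk1 and Eno2 were lower at a limma adjusted p under 0.10, as were 1.36% of all tested genes. By the unadjusted p at 0.05, 8 of the 11 were lower, against 13.2% of all tested genes, and none was higher (4.02% of all tested genes). Without siNF45 replicate 2, fewer of the 11 were lower by the unadjusted p, and fewer of all tested genes were too. The median difference of the 11 was then -0.73, against -0.04 over all tested genes. Of the other 17 tested members 14 were below 0, with a median of -0.08, and Ldhb and Dlat were lower by the unadjusted p. In bulk RNA, fewer cells of a type and less RNA per cell cannot be told apart.

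Ilf2 itself read 3.67 and 3.77 on the siNF45 arrays, against 5.79 and 5.98 on the siNTC arrays. It fell by 2.17 (SE 0.13, limma adjusted p = 0.020), and an exact two-sided permutation test gave p = 0.33, the smallest possible with 2 arrays against 2. All 7 beta cell markers with a probe set of their own were well within the measured range, from 5.5 to 10.17 over the 4 arrays, among them Ins2, Pdx1, Nkx6-1 and Iapp. Of 15 markers of other endocrine, exocrine, duct, endothelial, immune and mesenchymal cells, 10 lay below the limit and none was at 0. Their summed log2 values ranged from 37.17 to 37.74 on the siNF45 arrays and from 36.67 to 37.77 on the siNTC arrays. The 5 above the limit did not share a direction: somatostatin (Sst) differed by -0.89, pancreatic polypeptide (Ppy) by 0.52, glucagon (Gcg) by -0.02, the duct keratin Krt7 by 0.67 and the macrophage marker Cd68 by -0.16. Sst read 8.18 and 8.07 on the siNF45 arrays, against 9.19 and 8.83 on the siNTC arrays. Gcg read 7.61 and 7.53 on the siNF45 arrays, against 7.75 and 7.43 on the siNTC arrays. Both gave higher values than Pdx1 and Nkx6-1 on every array, although levels of different probe sets are not comparable. The other duct keratin, Krt19, below the limit, differed by -0.20. Their part in the results below was not tested. Over the tested genes the array median was 3.72 and 3.6 on the siNF45 arrays, against 3.82 and 3.76 on the siNTC arrays. Centring each array on that median adds 0.13 to every difference and puts the median of all genes at 0.07.

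**Figure D1:**
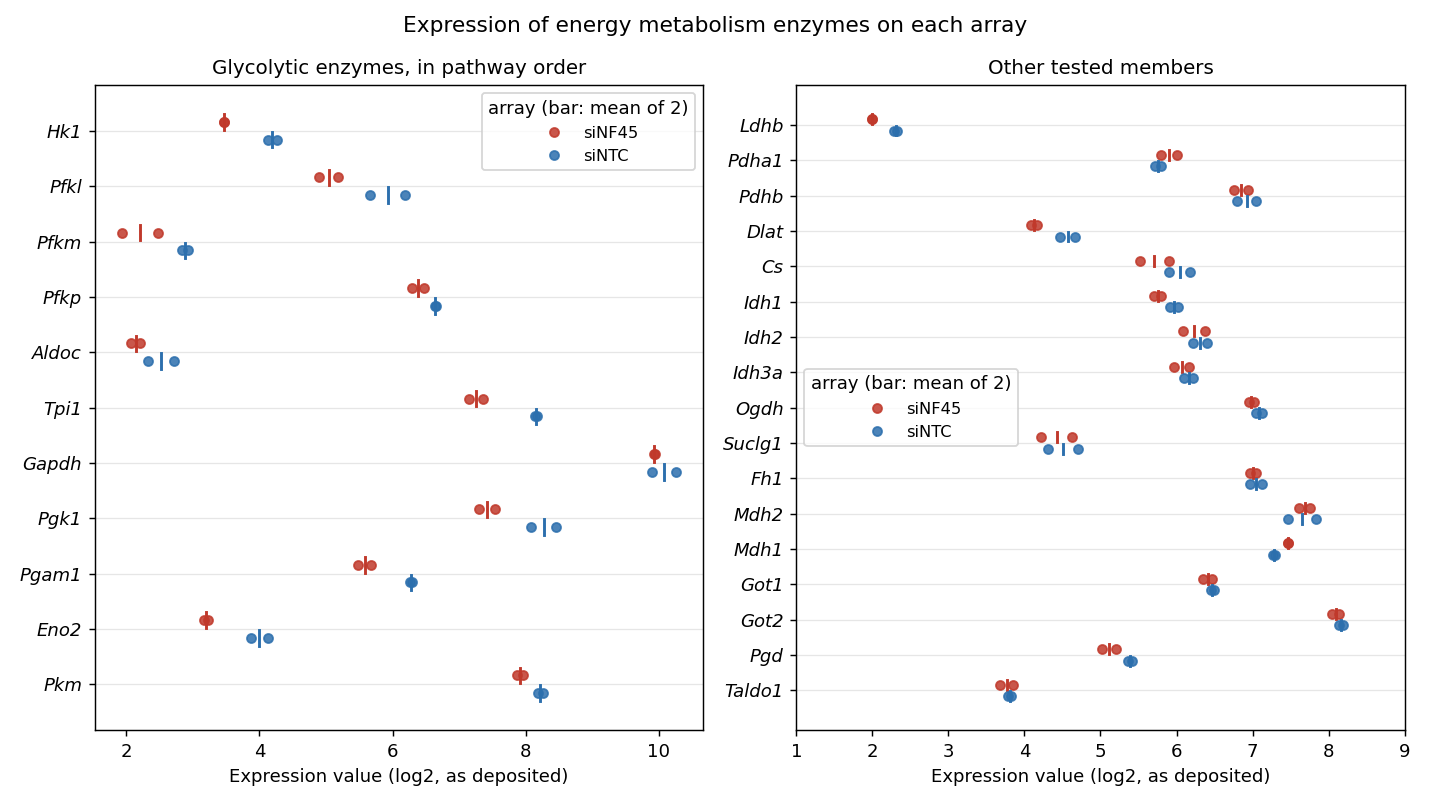
Expression values (log2, horizontal axis) of the 28 tested enzyme genes on each array, with siNF45 in red above siNTC in blue for each gene and a short bar at the mean of 2 arrays. Among the 11 glycolytic genes at left, Gapdh alone has overlapping groups, whereas most TCA and shuttle genes at right overlap.

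The first step of glycolysis is the phosphorylation of glucose. Hk1, hexokinase 1, read 3.46 and 3.46 on the siNF45 arrays, against 4.26 and 4.13 on the siNTC arrays. The groups were apart by far more than the arrays of a group, and the difference was -0.74 (SE 0.12, 95% interval -1.04 to -0.43, limma adjusted p = 0.093). Hk2, hexokinase 2, read 1.32 and 1.44 on the siNF45 arrays, against 1.16 and 1.35 on the siNTC arrays. At this dim level the groups overlapped. The second step, glucose 6-phosphate isomerase (Gpi1), was not analysed here.

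Phosphofructokinase, the committed step, has liver, muscle and platelet subunits. Pfkl, the liver type, read 5.18 and 4.9 on the siNF45 arrays, against 5.66 and 6.19 on the siNTC arrays, and differed by -0.89 (SE 0.21, limma adjusted p = 0.145). Pfkm, the muscle type, read 2.47 and 1.94 on the siNF45 arrays, against 2.83 and 2.92 on the siNTC arrays, a difference of -0.67 (SE 0.20, limma adjusted p = 0.197). For both, the siNF45 arrays were below the siNTC arrays, and the arrays of one group lay further apart than the nearest arrays of the 2 groups. Pfkp, the platelet type, read 6.47 and 6.29 on the siNF45 arrays, against 6.65 and 6.63 on the siNTC arrays. Its difference of -0.26 had a 95% interval that included 0 (-0.57 to 0.05). Whether the subunits differ from each other was not tested.

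Aldolase cleaves the hexose and triosephosphate isomerase interconverts the products. The brain-type aldolase Aldoc read 2.21 and 2.07 on the siNF45 arrays, against 2.72 and 2.33 on the siNTC arrays (difference -0.39, 95% interval -0.80 to 0.03). Tpi1, the isomerase, read 7.36 and 7.14 on the siNF45 arrays, against 8.17 and 8.14 on the siNTC arrays. It was 1.87-fold lower, at -0.91 (SE 0.13, 95% interval -1.23 to -0.58, limma adjusted p = 0.079), the largest difference of all tested members. With a mean-variance trend in the fit it passed, at a limma adjusted p of 0.013, where 134 of 11742 tested genes passed as lower. It also passed after centring the arrays (limma adjusted p = 0.040, where 0.860% of tested genes passed as lower). At a filter on the 70th percentile it passed too (limma adjusted p = 0.048), where 70 of 7977 tested genes passed as lower.

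The lower steps of glycolysis were not uniform. Gapdh, which oxidises glyceraldehyde 3-phosphate and is often used as a reference gene, read 9.92 and 9.94 on the siNF45 arrays, against 10.25 and 9.9 on the siNTC arrays. The siNTC arrays differed from each other by more than the group means did, and the difference was -0.15 (95% interval -0.53 to 0.24). Without siNTC replicate 1 it was 0.03. The second Gapdh probe set differed by -0.14 and the third by -0.25. None of these probe sets is numbered among those of the genes near Gapdh on chromosome 6. Whether they read the gene at that place was not tested.

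Pgk1, phosphoglycerate kinase and the first step that makes ATP, read 7.54 and 7.3 on the siNF45 arrays, against 8.08 and 8.46 on the siNTC arrays. Both siNF45 values were below both siNTC values, and the gene was 1.80-fold lower (difference -0.85, SE 0.18, limma adjusted p = 0.129). Pgam1, phosphoglycerate mutase, read 5.48 and 5.68 on the siNF45 arrays, against 6.29 and 6.26 on the siNTC arrays, a difference of -0.70 (SE 0.13, limma adjusted p = 0.113). Its other probe set, at 2.87 and 2.96 on the siNF45 arrays, against 3.91 and 3.56 on the siNTC arrays, differed by -0.82. In both probe sets of Pgam1 the siNF45 arrays were the lower ones. The brighter probe set, which stood for Pgam1, is numbered near those of chromosome 3 genes such as Slc16a1. The other is numbered among those of chromosome 19, where the gene lies. Whether the brighter probe set reads the gene at that place was not tested. With the trend in the fit, Pgk1 and Pgam1 passed as well, at limma adjusted p of 0.037 and 0.033. In that fit 134 of 11742 tested genes passed as lower.

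Eno2, the neuronal and endocrine enolase, read 3.22 and 3.17 on the siNF45 arrays, against 4.13 and 3.87 on the siNTC arrays. The groups were well apart, at -0.81 (SE 0.14, 95% interval -1.15 to -0.46, limma adjusted p = 0.097). Pkm, pyruvate kinase, which closes the pathway, read 7.87 and 7.96 on the siNF45 arrays, against 8.26 and 8.18 on the siNTC arrays. Its difference was smaller, at -0.31 (SE 0.12, 95% interval -0.60 to -0.01, limma adjusted p = 0.281). A single probe set cannot separate the splice forms of Pkm, and signal from processed pseudogenes, which several glycolytic genes have, was not separated here.

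Along the pathway, the differences of Hk1, Pfkl, Pfkm, Tpi1, Pgk1, Pgam1 and Eno2 lay between -0.91 and -0.67, and those of Aldoc, Pkm, Pfkp and Gapdh between -0.39 and -0.15. The 7 genes of the first group were in the lowest 5% of all tested genes by difference, whose limit was -0.58, and 10 of the 11 were in the lowest 25%. Both sizes of difference occurred among the upper steps, up to triosephosphate isomerase, and among the lower ones.

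**Figure D2:**
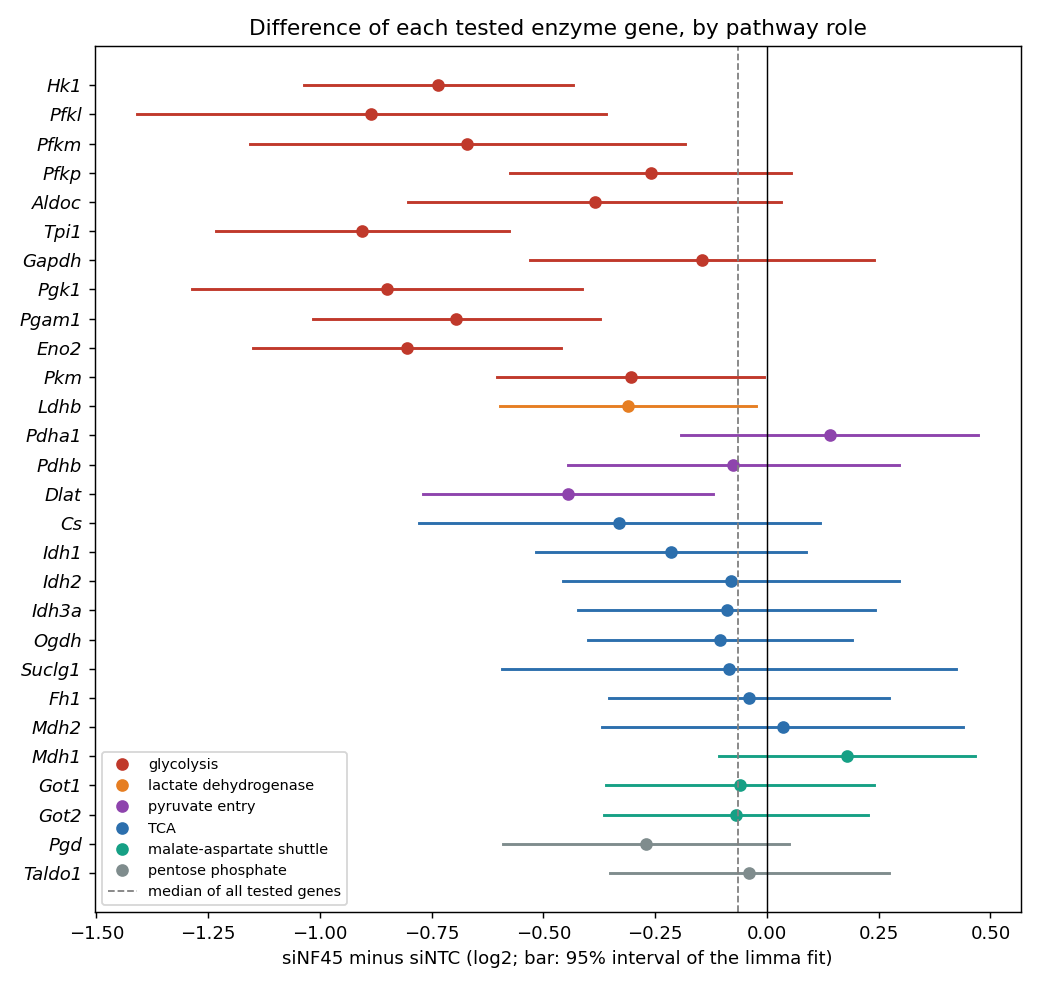
Difference of each tested enzyme gene (siNF45 minus siNTC, log2, horizontal axis) with the 95% interval of the limma fit, in pathway order and coloured by role. Intervals of 8 of the 11 glycolytic genes lie wholly below 0, and 15 of the 17 other intervals include 0; the dashed line is the median of all tested genes, -0.07.

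Lactate dehydrogenase makes lactate from pyruvate in the cytosol. Ldha, the A subunit, was dim, at 1.21 and 0.81 on the siNF45 arrays, against 1.31 and 2.04 on the siNTC arrays, and differed by -0.67 in a fit of all probe sets without a filter (95% interval -1.31 to -0.02, limma adjusted p = 0.396). Both siNF45 arrays were below both siNTC arrays, and the siNTC arrays were far apart. Ldhb, the B subunit, read 1.99 and 2 on the siNF45 arrays, against 2.29 and 2.32 on the siNTC arrays. Arrays of a group were nearly equal, and the difference was -0.31 (SE 0.12, limma adjusted p = 0.260).

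Pyruvate entry showed no common direction. Pdha1, the E1 alpha subunit of pyruvate dehydrogenase, read 5.79 and 6.01 on the siNF45 arrays, against 5.8 and 5.72 on the siNTC arrays, and differed by 0.14 (95% interval -0.19 to 0.47). Pdhb, the E1 beta subunit, read 6.94 and 6.75 on the siNF45 arrays, against 6.79 and 7.05 on the siNTC arrays (difference -0.08, interval -0.45 to 0.30). For both subunits the groups overlapped. Dlat, the E2 acetyltransferase of the same complex, read 4.16 and 4.09 on the siNF45 arrays, against 4.47 and 4.67 on the siNTC arrays. Both siNF45 arrays were below both siNTC arrays, and the difference was -0.45 (SE 0.13, 95% interval -0.77 to -0.12, limma adjusted p = 0.197).

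The 8 genes grouped here with the TCA cycle, among them the cytosolic Idh1, had a median of -0.09. They ranged from -0.33 to 0.04, and 7 were below 0. After centring the median was 0.04 and 2 of the 8 were below 0, so the sign of these small differences depended on the scaling. Cs, citrate synthase, read 5.9 and 5.52 on the siNF45 arrays, against 6.18 and 5.9 on the siNTC arrays (difference -0.33, 95% interval -0.78 to 0.12). Idh1, the cytosolic NADP-dependent isocitrate dehydrogenase, read 5.71 and 5.79 on the siNF45 arrays, against 5.91 and 6.02 on the siNTC arrays. Its groups did not overlap, although the interval of the difference, -0.22, included 0 (-0.52 to 0.09). Ogdh, a subunit of 2-oxoglutarate dehydrogenase, read 6.95 and 7.02 on the siNF45 arrays, against 7.13 and 7.05 on the siNTC arrays, and differed by -0.11 (interval -0.40 to 0.19). Idh2 and Idh3a, the mitochondrial isocitrate dehydrogenases, differed by -0.08 and -0.09. Suclg1, a subunit of succinyl-CoA ligase, differed by -0.09, fumarase (Fh1) by -0.04 and mitochondrial malate dehydrogenase (Mdh2) by 0.04, all with overlapping groups.

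In the malate-aspartate shuttle, Mdh1, cytosolic malate dehydrogenase, stood on the other side of 0. It read 7.47 and 7.46 on the siNF45 arrays, against 7.3 and 7.27 on the siNTC arrays. Both siNF45 arrays were above both siNTC arrays, which 15.2% of tested genes showed, and the difference was 0.18 (95% interval -0.11 to 0.47, limma adjusted p = 0.476). Among the probe sets that stood for the 28 tested members, no other had its siNF45 arrays wholly above. The aspartate aminotransferases Got1, cytosolic, and Got2, mitochondrial, differed by -0.06 and -0.07 with overlapping groups. The other probe set of Got2, below the limit, differed by 0.20, with both siNF45 arrays above both siNTC arrays.

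Of the pentose phosphate pathway, 2 of 4 members were tested. Pgd, 6-phosphogluconate dehydrogenase of the NADPH-making branch, read 5.21 and 5.02 on the siNF45 arrays, against 5.36 and 5.41 on the siNTC arrays. The siNF45 arrays were the lower ones, and the difference of -0.27 had a 95% interval of -0.59 to 0.05. Taldo1, transaldolase of the branch that rearranges sugars, read 3.68 and 3.85 on the siNF45 arrays, against 3.79 and 3.82 on the siNTC arrays. It differed by -0.04 (interval -0.35 to 0.27).

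A contrast within each array does not depend on how arrays are shifted against each other. The mean of the 11 glycolytic genes minus the mean of the 17 other tested members was -0.33 and -0.39 on the siNF45 arrays, against 0.15 and 0.12 on the siNTC arrays. The arrays of a group differed by less than 0.1, and the contrast differed by -0.49 between the groups. Only that difference is informative, since levels of different probe sets are not comparable, and no test was made over the list. Against the mean of all tested genes, the glycolytic mean differed by -0.52 and the mean of the other members by -0.02. After centring, 7 of the 11 glycolytic genes were lower at an unadjusted p under 0.05 (7.40% of tested genes). Of the 17 other members none was lower by that measure, 5 were below 0 and 12 were above, when 39.5% of all tested genes were below 0.

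**Figure D3:**
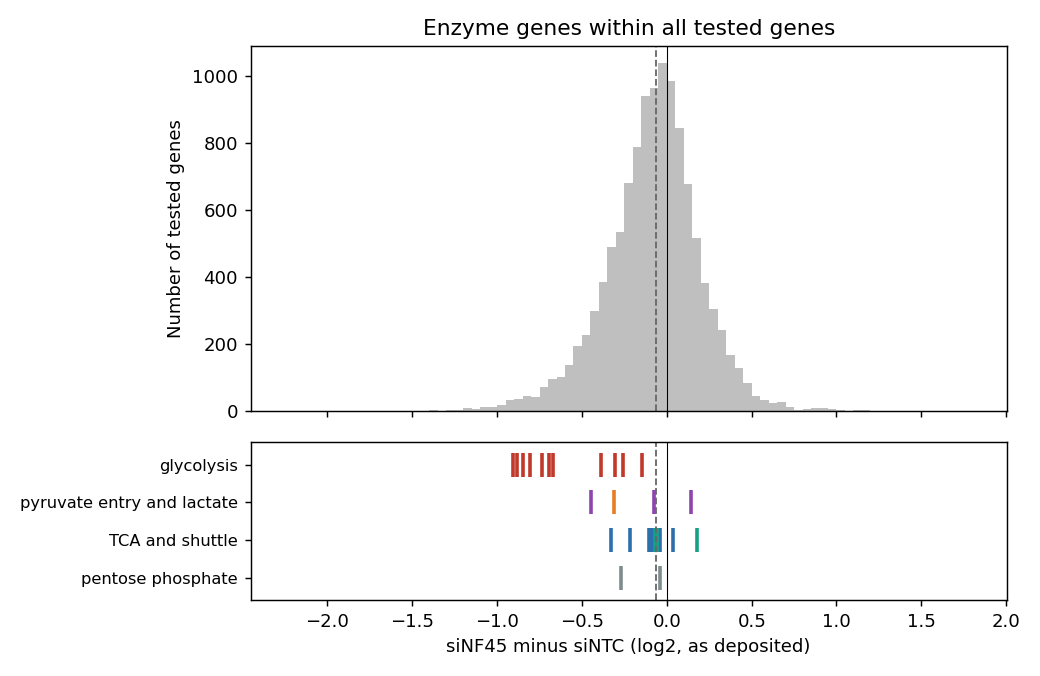
Top, number of tested genes by difference (siNF45 minus siNTC, log2, bins of 0.05) for all 11742 genes. Bottom, each tested enzyme gene as a tick in the row of its role; 7 glycolytic ticks lie left of the 5% limit of -0.58 and no other tick does.

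Glycolytic genes are classical targets of the hypoxia-inducible factors (HIF), which bind a short core motif, and of Myc and the carbohydrate response factor, which bind the E-box or relatives of it. Because most glycolytic genes lay on the same side, their promoters were searched for these motifs, on both strands of the 250 bases upstream of each annotated start (RefSeq, build GRCm38.p6). The HIF core was searched as ACGTG. Its other common form was searched as GCGTG. The E-box was searched as CACGTG, which includes the first form, so these matches overlap. For genes with several starts any window counted. The windows below are those of the 5 genes with the largest differences among those with 1 annotated start, followed by Gapdh, the glycolytic gene with the smallest difference. Capitals mark the HIF core in either form, read on either strand, and each window ends just before the start.
Tpi1: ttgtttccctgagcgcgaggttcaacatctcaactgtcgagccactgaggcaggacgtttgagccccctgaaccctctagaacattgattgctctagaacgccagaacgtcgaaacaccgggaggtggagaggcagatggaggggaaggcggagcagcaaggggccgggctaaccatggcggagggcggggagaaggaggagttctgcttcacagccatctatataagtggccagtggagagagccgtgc
Pfkl: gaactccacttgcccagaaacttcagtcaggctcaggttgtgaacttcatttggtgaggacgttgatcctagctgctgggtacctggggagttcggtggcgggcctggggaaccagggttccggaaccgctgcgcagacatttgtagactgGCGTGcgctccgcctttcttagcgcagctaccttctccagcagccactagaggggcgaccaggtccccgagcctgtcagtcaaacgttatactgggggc
Pgk1: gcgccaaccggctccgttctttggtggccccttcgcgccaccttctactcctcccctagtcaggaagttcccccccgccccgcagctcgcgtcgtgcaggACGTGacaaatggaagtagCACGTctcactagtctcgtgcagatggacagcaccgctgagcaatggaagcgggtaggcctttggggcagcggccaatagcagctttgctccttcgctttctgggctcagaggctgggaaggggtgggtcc
Eno2: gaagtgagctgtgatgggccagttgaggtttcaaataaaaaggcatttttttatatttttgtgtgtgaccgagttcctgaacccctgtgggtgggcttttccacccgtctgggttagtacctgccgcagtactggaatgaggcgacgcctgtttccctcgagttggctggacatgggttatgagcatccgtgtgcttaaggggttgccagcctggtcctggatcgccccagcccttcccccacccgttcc
Pgam1: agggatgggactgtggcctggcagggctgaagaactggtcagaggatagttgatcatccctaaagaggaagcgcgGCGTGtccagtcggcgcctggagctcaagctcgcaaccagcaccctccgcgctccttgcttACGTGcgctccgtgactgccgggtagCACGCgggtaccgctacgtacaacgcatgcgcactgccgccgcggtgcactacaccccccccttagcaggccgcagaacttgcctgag
Gapdh: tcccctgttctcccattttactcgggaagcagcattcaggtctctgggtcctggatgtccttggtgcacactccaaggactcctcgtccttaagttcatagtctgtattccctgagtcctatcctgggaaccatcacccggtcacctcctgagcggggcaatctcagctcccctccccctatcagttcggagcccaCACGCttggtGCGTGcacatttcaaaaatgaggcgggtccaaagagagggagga

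The windows lie at chr6:124814159-124814408 (minus strand), chr10:78009808-78010057 (minus strand), chrX:106186850-106187099 (plus strand), chr6:124769674-124769923 (minus strand), chr19:41911621-41911870 (plus strand) and chr6:125165774-125166023 (minus strand). Tpi1 and Eno2, with differences of -0.91 and -0.81, held neither motif in this window. Pgk1 held 2 copies of ACGTG. Pgam1 held 1 copy of it and 2 of the other form, and Pfkl held 1 copy of GCGTG. Gapdh, with a difference of -0.15, held 2 copies of that form. Whether the probe sets that stood for Gapdh and Pgam1 read the genes behind these windows was not tested. The core ACGTG was present for 4 of the 11 tested glycolytic genes (36.4%) and 3 of the 16 other tested members that have a window (18.8%), against 25.3% of the 9235 tested genes with one and 18.5% of all 27025 genes. GCGTG was present for 7 of the 11 (63.6%) and for 13 of the 16 (81.2%), against 49.6% of tested and 30.9% of all genes. The E-box CACGTG was present for 1 of the 11 and 1 of the 16, against 10.1% of tested and 6.86% of all genes. Letters of a motif do not show that a factor binds there, and sites elsewhere were not searched.

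Other genes of these pathways were taken from lists of isozymes, regulators and carriers. Of 82 listed genes 65 were tested, and 40 of them lay below 0, with a median of -0.09. None passed the limma adjusted threshold, and at an unadjusted p under 0.05, 8 were lower and 4 higher, when 13.2% of all tested genes were lower and 4.02% higher by that measure. These counts over the 65 genes were close to those shares. The lists differed in which genes led them.

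The carriers of sugar and lactate had a median of -0.30, with 5 of 6 tested genes below 0. Slc2a1, the glucose transporter GLUT1, read 4.64 and 4.69 on the siNF45 arrays, against 5.3 and 5.35 on the siNTC arrays, and differed by -0.66 (SE 0.12, limma adjusted p = 0.098). Slc16a3, the lactate exporter MCT4, read 3.25 and 2.75 on the siNF45 arrays, against 3.81 and 4.02 on the siNTC arrays, a difference of -0.92 (SE 0.20, limma adjusted p = 0.132). Both had siNF45 arrays below the siNTC arrays. The lactate carrier Slc16a1 differed by -0.33, the glucose 6-phosphate carrier Slc37a4 by 0.17, and Slc2a2, the main glucose transporter of mouse beta cells, by -0.17, looked at after its value was seen.

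The other glycolysis genes, isozymes and the bifunctional enzymes that set fructose 2,6-bisphosphate, had a median of 0.07, with 4 of 9 below 0. Bpgm, bisphosphoglycerate mutase, differed by -0.46, the bifunctional enzyme Pfkfb4 by 0.30, the liver and red cell pyruvate kinase Pklr by 0.32 and the ADP-dependent glucokinase Adpgk by -0.20, with limma adjusted p between 0.305 for Bpgm and 0.462 for Adpgk. None of the 9 was lower or higher at an unadjusted p under 0.05.

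Genes that carry pyruvate or control its oxidation had a median of -0.10, and 8 of 11 were below 0, when 61.3% of all tested genes were. Mpc1 and Pdpr were lower by the unadjusted p, as were 13.2% of all tested genes. Mpc1, a subunit of the mitochondrial pyruvate carrier, read 5.5 and 5.35 on the siNF45 arrays, against 6 and 5.88 on the siNTC arrays, and differed by -0.52 (SE 0.13, limma adjusted p = 0.153). Pdpr, the regulatory subunit of pyruvate dehydrogenase phosphatase, differed by -0.61 (SE 0.16, limma adjusted p = 0.165). A pyruvate dehydrogenase kinase, Pdk1, gave -0.55 (SE 0.22, limma adjusted p = 0.290). Dld, the E3 subunit shared with 2-oxoglutarate dehydrogenase, lay on the other side, at 0.27 (SE 0.12, limma adjusted p = 0.349).

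The other genes grouped with the TCA cycle, malic enzymes and cytosolic aconitase among them, had a median of -0.02 over 14 tested genes. Of these 8 were below 0 and none was lower or higher at an unadjusted p under 0.05. Malic enzyme Me3 differed by -0.56, the succinate dehydrogenase subunit Sdha by -0.23, cytosolic aconitase Aco1 by 0.20 and the isocitrate dehydrogenase subunit Idh3b by -0.16. Among 7 other shuttle genes 5 were below 0, 1 was above, and the median was -0.09. Gpd2, the mitochondrial glycerol phosphate dehydrogenase, read 5.59 and 5.6 on the siNF45 arrays, against 5.27 and 5.26 on the siNTC arrays, and differed by 0.33 (SE 0.12, limma adjusted p = 0.242). The cytosolic partner Gpd1 differed by -0.33, the glutamate carrier Slc25a22 by -0.44 and the aspartate-glutamate carrier Slc25a12 by -0.11.

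In the pentose phosphate list 3 of 7 tested genes were below 0 and the median was 0.04. H6pd, the hexose 6-phosphate dehydrogenase of the endoplasmic reticulum, read 2.75 and 2.44 on the siNF45 arrays, against 3.4 and 3.58 on the siNTC arrays, and differed by -0.90 (SE 0.16, limma adjusted p = 0.097). Prps1, which makes phosphoribosyl pyrophosphate from ribose 5-phosphate, read 5.92 and 6.02 on the siNF45 arrays, against 5.48 and 5.48 on the siNTC arrays, a difference of 0.49 (SE 0.12, limma adjusted p = 0.149). Rpia, ribose 5-phosphate isomerase, read 3.13 and 3.18 on the siNF45 arrays, against 2.79 and 2.44 on the siNTC arrays, and differed by 0.54 (SE 0.16, limma adjusted p = 0.189). The groups of all 3 genes were apart, in opposite directions. Prps2, a paralog of Prps1, differed by -0.30.

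**Figure D4:**
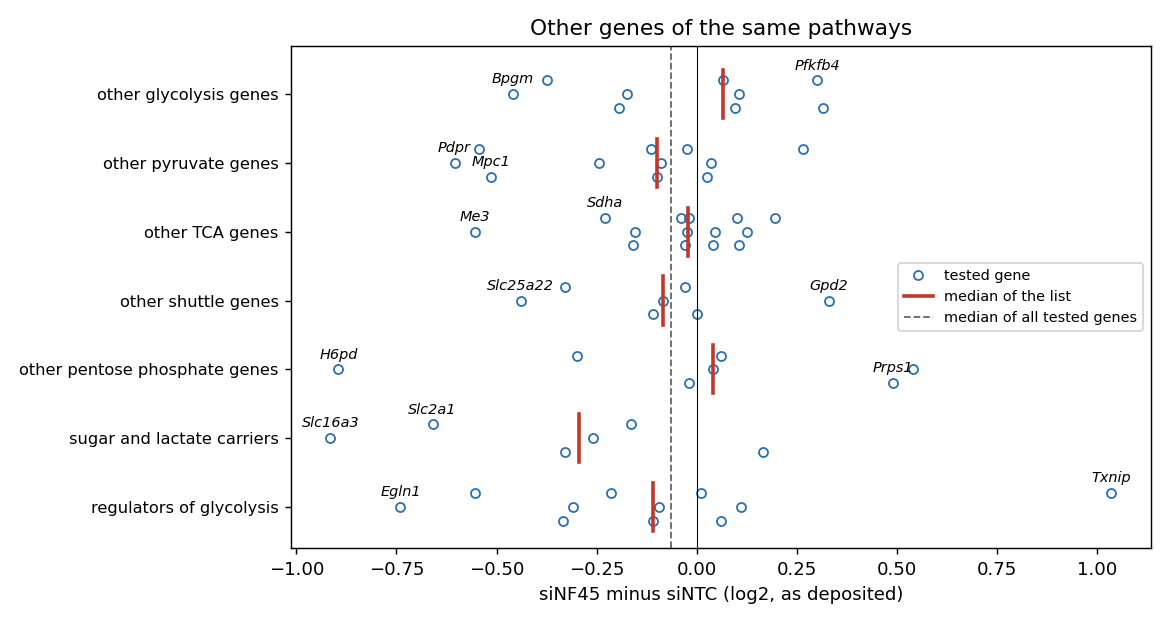
Differences (siNF45 minus siNTC, log2, horizontal axis) of 65 other tested pathway genes in 7 lists, 1 circle per gene, with the list median as a red bar and the 2 genes of smallest p named. The carriers have the lowest median, -0.30, and Txnip the highest value, 1.04.

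Among regulators, Txnip, a glucose-induced inhibitor of thioredoxin and of glucose uptake, read 5.38 and 5.48 on the siNF45 arrays, against 4.34 and 4.45 on the siNTC arrays, and differed by 1.04 (SE 0.12, limma adjusted p = 0.071). After centring it passed as higher, at a limma adjusted p of 0.0166, where 71 of 11742 tested genes passed as higher. Egln1, an oxygen-sensing prolyl hydroxylase that marks HIF for destruction, read 5.26 and 5.01 on the siNF45 arrays, against 5.75 and 6 on the siNTC arrays, a difference of -0.74 (SE 0.16, limma adjusted p = 0.130). Vhl, which recognises the marked HIF, differed by -0.56 and the related hydroxylase Egln3 by -0.34. Of 11 tested regulators 7 were below 0, with a median of -0.11. The transcripts of the transcription factors themselves, looked at after their values were seen, differed by 0.06 for Hif1a (95% interval -0.23 to 0.35), by -0.11 for its partner Arnt (-0.41 to 0.19), by -0.31 for Myc (-0.67 to 0.05) and by 0.11 for Mlxipl, the carbohydrate response factor (-0.25 to 0.47).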

How the data were processed

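The deposited table holds log2 expression values for each array's probe sets. The authors used Transcriptome Analysis Console, per the submitters' processing notes. Its version or summarisation method is not given in the sources used here. Precision is limited by 4 arrays. The log base was taken as 2 from the range, 0.12 to 12.21.

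Of 41345 probe sets, 23521 had 1 gene symbol in the platform annotation, 1814 several and 16010 none here. Groups, from the sample titles, were fitted by limma (version 3.58.1; R 4.3.3) without covariates, using lmFit and eBayes (2 residual and 3.69 prior degrees of freedom), with Benjamini-Hochberg adjustment over 11742 genes. The code was tested on simulated data. Differences are siNF45 minus siNTC with moderated SE. All members, Ilf2 and the 4 genes of smallest p in each other list are named; exceptions are marked in the text. Members and lists were chosen with earlier results of these data known. Alternatives were other filters, scalings, spread estimates, probe set rules, thresholds, a replicate block and leaving out each array.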

Additional observations from a re-analysis of the deposited data

How the results depend on the processing

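The 7 glycolytic genes with the largest differences stayed below 0 in each refit that tested them. Pfkm was not tested at the 70th percentile filter. Leaving out 1 array could not turn these signs, since both siNF45 arrays lay below both siNTC arrays for each of the 7. Settings that changed only the threshold, filter, spread estimate or replicate block left every member's difference unchanged, so they could not turn a sign either. Of 333 alternative values of members, 306 kept direction and side of the threshold, 22 turned sign and 5 passed the threshold (Tpi1 under 3 settings, Pgk1 and Pgam1 under 1). Genes called numbered 62 with quantile-normalized arrays, 172 with centred arrays, 174 with a trend, 87 with the 70th percentile filter, 190 at an adjusted p under 0.10, 2022 at an unadjusted p under 0.05, 0 with the replicate block and 0 to 0 without 1 array, against 10. Members called numbered 1 at the 70th percentile filter, 1 after centring, 3 with a trend, 3 at 0.10 and 10 at the unadjusted p, against 0. Without 1 array, genes at an unadjusted p under 0.05 ranged from 1236 to 1670, members from 5 to 7 (5 without siNF45 replicate 2) and glycolytic members from 5 to 7, and Ilf2 from -2.26 to -2.07 without passing. With the replicate block Ilf2 stayed at -2.17 with a limma adjusted p of 0.258; same-numbered deviations correlated at 0.00615 over genes, so the numbers were not taken to pair samples.

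Quantile normalization gave medians of -0.0156 for the shuttle and -0.0834 for pentose phosphate, and centring gave -0.57 for glycolysis, 0.055 for pyruvate entry, 0.07 for the shuttle and -0.025 for pentose phosphate. Without 1 array the medians ranged from -0.205 to 0.055 for pyruvate entry and from -0.115 to 0 for the shuttle. Signs turned after centring for Pdhb (0.055), Idh2 (0.05), Idh3a (0.04), Ogdh (0.025), Suclg1 (0.045), Fh1 (0.09), Got1 (0.07), Got2 (0.06) and Taldo1 (0.09, and 0.0462 after quantile normalization), by the constant that centring adds. Without 1 array, values ranged from -0.32 to 0.03 for Gapdh, -0.205 to 0.055 for Pdhb, -0.22 to 0.06 for Idh2, -0.19 to 0.01 for Idh3a, -0.29 to 0.12 for Suclg1, -0.12 to 0.04 for Fh1, -0.145 to 0.215 for Mdh2 and -0.125 to 0.045 for Taldo1. The cause of the other shifts was not tested.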

Other observations

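Eno2 and Tpi1 are close neighbours on mouse chromosome 6, with 2 protein-coding genes between them in the RefSeq annotation, and Gapdh lies further along the same stretch. The neighbours were looked at after the values were seen. Of 16 other tested genes from Ptpn6 to Mrpl51, 10 were below 0, with a median difference of -0.05 and a range of -0.34 to 0.29. None was lower at an unadjusted p under 0.05, a measure by which 13.2% of all tested genes were lower. With so few neighbours, that share would give few such genes. Spsb2, which lies between Eno2 and Tpi1, differed by 0.21, Usp5, next to Tpi1, by -0.16 and Atn1, next to Eno2, by -0.34. Eno2 differed by -0.81 and Tpi1 by -0.91. Both already lay in the lowest 5% of all tested genes by difference, so a comparison with 16 others was largely fixed beforehand. Both differed by more than each of those 16 genes. Gapdh, at -0.15, did not, but its probe set is not numbered among those of the neighbours. Whether that probe set reads the gene on chromosome 6 was not tested.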
